A study of Danio rerio with 6 samples.

Results

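The long arm of zebrafish chromosome 4 was described here in sorted gut epithelial cells at 3 and 5 days post fertilization (dpf). Its genes were taken by position. All genes of chromosome 4 with a smallest exon start at base 28000000 or beyond on GRCz11 were included, which gave 1644 of 32520 annotated genes. The other 736 genes of chromosome 4 served for comparison.

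Cells came from larvae of the line TgKI(cldn15la:tdTomato)pd1249, which carries the red fluorescent protein tdTomato as a knock-in at cldn15la. That gene encodes a claudin, a tight junction protein, of the intestinal lining. All 6 libraries shared this transgene and batch 1. Each was RNA from a pool of embryos whose heads had been removed, and live tdTomato-positive cells were sorted from it after digestion with trypsin and collagenase. There were 3 libraries at 3 dpf and 3 at 5 dpf, grouped by title, and 3 dpf replicate 3 carries a treatment tag of 4 dpf. The p-values measure only the spread between these pools. Totals ran from 102653637 to 125456069 counts. The sort gene cldn15la was present at 682, 690 and 525 CPM (counts per 1000000, scaled by edgeR's TMM factors) in the 3 dpf libraries and 900, 457 and 347 CPM in the 5 dpf libraries. Its ages overlapped, with a log2 difference of -0.16 (edgeR adjusted p = 0.779).

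In zebrafish this arm is known as a heterochromatic, repeat-rich and late-replicating region. It holds arrays of 5S ribosomal and spliceosomal RNA genes, the miR-430 cluster, and large tandem families of C2H2 zinc finger and NLR genes. C2H2 zinc finger proteins bind DNA, and many are thought to act as repressors of transposable elements. NLR proteins are intracellular sensors of the innate immune system. Members of miR-430 help clear maternal transcripts in the early embryo.

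A smaller share of the genes was detected on the long arm than on the rest of the chromosome, and those detected were at a lower level. With at least 10 counts in at least 3 libraries as the limit, 784 of 1644 genes (47.7%) were detected on the long arm and 571 of 736 (77.6%) on the rest of chromosome 4. No count in any library was seen for 564 long arm genes (34.3%) and for 49 genes (6.66%) of the rest. Many of the silent entries were small RNA genes. Without them, 783 of 1168 long arm genes (67.0%) and 569 of 692 others (82.2%) were detected, against 76.2% of all such genes in the genome. Reads that map to several places were not counted, so near-identical copies are uncertain, and how far this sets the low values was not tested.

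The small RNA genes numbered 476 on the long arm, with 244 U6 and 148 U1 spliceosomal RNA copies, 54 miR-430 copies, 26 copies of 5S and 3 of 5.8S ribosomal RNA. Of these, 463 had 0 counts in every library and 1 was detected. The miR-430 copies together held 0 counts in 5 libraries and 4 counts in 5 dpf replicate 1. The U6 copies together held 1 count, in 5 dpf replicate 3. The 5S copies held 4, 2 and 2 counts at 3 dpf and 0, 12 and 9 at 5 dpf. These values set no level for the RNAs, which are short and nearly identical between copies.

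Levels per length, given as TMM-scaled FPKM (CPM per kilobase of exon), also differed. The median over tested genes was 0.282 FPKM on the long arm (767 genes tested), 3.11 on the rest of the chromosome (569 genes) and 2.75 over all 22386 tested genes. At or above 1 FPKM were 138 long arm genes and 397 of the rest, and at or above 10 FPKM 17 and 153. The median gene tested on the long arm had 67.0 counts per library, against 922 on the rest. The median standard error of the log2 fold change was 0.49 against 0.35.

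**Figure D1:**
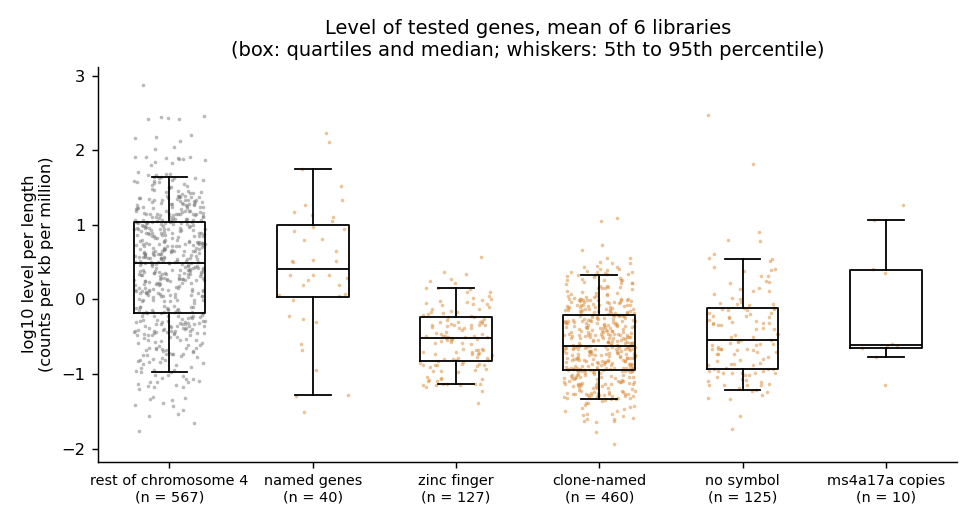
Level per length of each tested gene (log10 of TMM-scaled FPKM, mean of 6 libraries), for the rest of chromosome 4 and 5 groups of long arm genes, small RNAs left out. Boxes span the quartiles with the median as a line and whiskers reach the 5th and 95th percentiles. The zinc finger, clone-named and unnamed genes have medians of 0.308, 0.240 and 0.281 FPKM, below the rest of the chromosome, and the genes with ordinary names have a median of 2.63.

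A few genes held most of the signal. The 5 most abundant members made up 39.99% of all long arm counts and the 10 most abundant 50.3%, with slco1d1 alone at 11.2%. The arm took 2815, 2750 and 2725 CPM, over all counts, at 3 dpf and 1817, 2518 and 2912 at 5 dpf, which is 2763 ± 46.2 and 2416 ± 554 (SD, n = 3 each). The ages overlapped in this share. Its lowest value was in 5 dpf replicate 1, the library in which 29.2% of counts were mitochondrial, against 7.91 to 11.4% in the others. With TMM-scaled totals the arm took 2757, 2748 and 2452 CPM at 3 dpf and 2967, 2217 and 2301 at 5 dpf. On that scale 5 dpf replicate 1 was highest, and the ages overlapped as well.

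Between the ages, long arm genes that changed mostly rose. Of 767 tested, 134 passed an adjusted p of 0.05 in edgeR's quasi-likelihood test (17.5%), 117 of them higher at 5 dpf (15.3%) and 17 lower (2.22%). Among all genes tested 32.1% were called, 18.1% higher and 14.1% lower. On the rest of chromosome 4, 35.9% were called, with 119 genes higher (20.9%) and 85 lower (14.9%). For 327 long arm genes (42.6%) no library of either age lay within the other's range of CPM, against 50.3% of all genes. The median log2 fold change was 0.19 on the long arm, 0.27 on the rest and 0.09 over all genes. Only 22 of the 134 calls held whichever library was left out. Without 3 dpf replicates 1, 2 and 3 in turn 24, 35 and 52 of the calls were kept, and without the 5 dpf replicates 123, 86 and 79. The genome-wide count of calls moved in the same way, from 7194 to 3003, 3590 and 5293 and to 10628, 5178 and 5311.

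Low counts went with few falls throughout the genome. Among genes with a mean of 30 counts or fewer, 6.78% of 177 long arm genes and 10.8% of all genes were higher, and 0.565% and 1.29% were lower. From 30 to 100 counts, 14.9% of 289 long arm genes and 22.6% of all genes were higher, with 0.692% and 1.54% lower. From 100 to 300 counts, 18.4% of 179 and 29.2% were higher, with 3.35% and 3.94% lower. The long arm lay below all genes in each of these shares. From 300 to 1000 counts, 23.8% of 84 long arm genes were higher against 21.3% of all genes, while 1.19% were lower against 11%. Above 1000 counts, 24.3% of 37 long arm genes were higher and 18.9% lower, against 13.9% and 24.7%. These last classes hold few long arm genes.

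The arm's genes split by their exon structure, a pattern noticed after the values were seen. Genes with 8 or more separate exon blocks in the annotation rose: 81 of 249 tested (32.5%) were called higher and 5 lower (2.01%), with a median log2 fold change of 1.18. Of genes with 3 or 4 exon blocks, 297 were tested, and 5 were higher (1.68%) and 10 lower (3.37%), with a median of -0.28. Over all genes of 8 or more blocks, 19.3% were higher and 17.4% lower with a median of 0.05, and on the rest of chromosome 4 the shares were 21.4% and 18% with a median of 0.20. For all genes of 3 or 4 blocks, 16.7% were higher and 9.68% lower. These sets differ in level. The median tested gene of 8 or more blocks had 80.8 counts per library on the long arm, 1497 over all genes and 1552 on the rest of chromosome 4. On the long arm that of 3 or 4 blocks had 66.7. Over all genes of 30 to 100 counts, whatever their blocks, 22.6% were higher and 1.54% lower, with a median of 0.80. The part of level in the split was not tested. Of the 117 long arm genes that rose, 81 (69.2%) had 8 or more blocks, and among the 632 that were tested and not called 163 (25.8%) did.

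**Figure D2:**
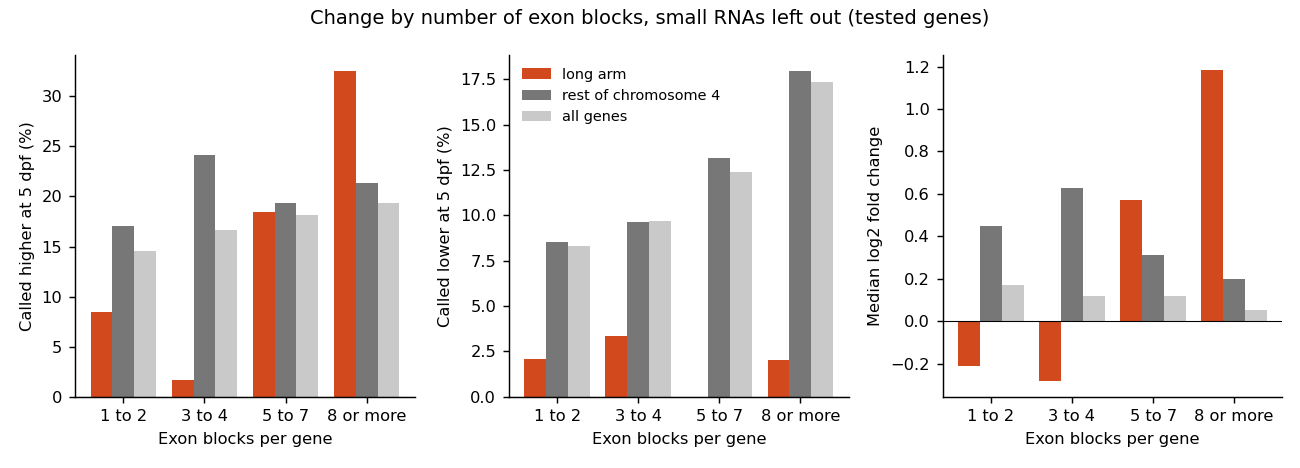
Share of tested genes called higher (left) and lower (middle) at 5 dpf by edgeR, in percent, and median log2 fold change of 5 dpf over 3 dpf (right), by the number of exon blocks per gene, for the long arm, the rest of chromosome 4 and all genes, without small RNAs. On the long arm the median runs from -0.28 at 3 to 4 blocks to 1.18 at 8 or more, while over all genes it stays between 0.05 and 0.17. The sets are not matched for level, with medians at 8 or more blocks of 80.8 counts per library on the long arm and 1497 over all genes.

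The split can also be read in the library values, which are those that gave the fold changes. The median gene of 8 or more blocks stood at 0.439, 0.451 and 0.477 CPM in the 3 dpf libraries and at 1.20, 0.807 and 0.922 in the 5 dpf libraries. All 3 libraries of 5 dpf lay above those of 3 dpf, with replicate 1 highest. The CPM of single genes did not overlap between the ages for 164 of these 249 genes (65.9%). Over all genes tested this share was 50.3%, and over all genes of 30 to 100 counts 43.2%. The median gene of 3 or 4 blocks stood at 0.544, 0.619 and 0.596 CPM at 3 dpf and 0.498, 0.449 and 0.577 at 5 dpf, and these ages overlapped. The summed level of the many-exon genes did not rise. It was 1818, 1842 and 1593 CPM at 3 dpf and 2057, 1397 and 1430 at 5 dpf, and a few abundant genes of this group, among them slco1d1 and NUP50, fell.

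Most of the many-exon genes bear clone names. Of the 249 tested, 189 were clone-named, with 65 higher and 1 lower, 29 had no symbol, with 6 higher, and 23 had ordinary names, with 4 higher and 3 lower. No family was assigned to clone-named genes here. In the first 40 Mb of the arm 45 of 150 many-exon genes rose (30.0%) and in the remainder 36 of 99 (36.4%), with medians of 1.22 and 1.15. Over all genes tested 18.1% rose. Of all genes of 30 to 100 counts 22.6% rose, with a median of 0.80. Genes of 3 or 4 blocks had medians of -0.41 in the first 40 Mb, with 1 of 213 higher and 8 lower, and 0.15 in the remainder, with 4 of 84 higher and 2 lower. Without the znf-named genes their median over the arm was -0.16. Among the 138 tested genes of 8 or more blocks whose span did not overlap another member on the same strand, 40 rose (29.0%) and 4 fell. Their median was 1.01. Without 5 dpf replicate 1, which also changes the set that passes the count filter, the median of the tested many-exon genes was 0.86 and 82 were called higher. Over the genome 5748 of 23197 genes were then higher, against 4045 of 22386 in the main fit. Over the 6 libraries left out in turn the number of many-exon genes higher ran from 15, without 3 dpf replicate 1, to 82. It was 22, 28 and 53 without 3 dpf replicates 2 and 3 and 5 dpf replicate 3.

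Zinc finger genes, told by their znf symbols, were mostly detected and low. Counts passed the limit for 127 of 143 (88.8%), and all of these were tested. Their median was 0.308 FPKM, and no member exceeded 3.74 FPKM. The 173 tested znf genes elsewhere in the genome had a median of 3.02 FPKM. The most abundant on the long arm was znf1038, at 4.98, 6.31 and 6.55 CPM at 3 dpf and 3.01, 4.28 and 5.20 at 5 dpf. These values overlapped between the ages, and the log2 fold change was -0.51 (SE 0.28, edgeR adjusted p = 0.198). The next by level per length were znf1141, znf974 and znf1067, at 2.34, 2.17 and 1.89 FPKM, which were not called (edgeR adjusted p = 0.238, 0.430 and 0.424).

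Few long arm zinc finger genes were called, 1 higher and 4 lower of 127 (3.94%), against the 32.1% of all genes. Of their fold changes 100 were negative and 27 positive, with a median of -0.39 on the log2 scale, and 101 lay between -1 and 1. The znf genes elsewhere had a median of -0.34, with 10 higher and 30 lower of 173 (23.1% called). On the long arm 142 of 143 symbols are numbered znf900 or above. The set elsewhere mixes such numbered genes with others such as ZNF367 (-1.44). Its numbered genes changed in both directions, as in znf1179 (0.90) and znf1167 (-1.06), and were not summarised apart. The long arm set and the set elsewhere differ in level. The median tested znf gene had 61.5 counts per library on the long arm and 707 elsewhere, against 753 over all genes. Over all genes of 30 to 100 counts 22.6% were higher and 1.54% lower. The part of level in the shares called was not tested. The summed level of the long arm zinc finger genes was 103, 126 and 126 CPM at 3 dpf and 88.3, 85.1 and 112 at 5 dpf, which overlapped. That of the znf genes elsewhere was 3860 ± 92.3 CPM at 3 dpf and 2707 ± 104 at 5 dpf (SD, n = 3 each). Of the 127, 68 had their lowest 5 dpf value in replicate 1 and 28 their highest. Without 5 dpf replicate 1 the median was -0.29, and without replicate 3 it was -0.62.

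**Figure D3:**
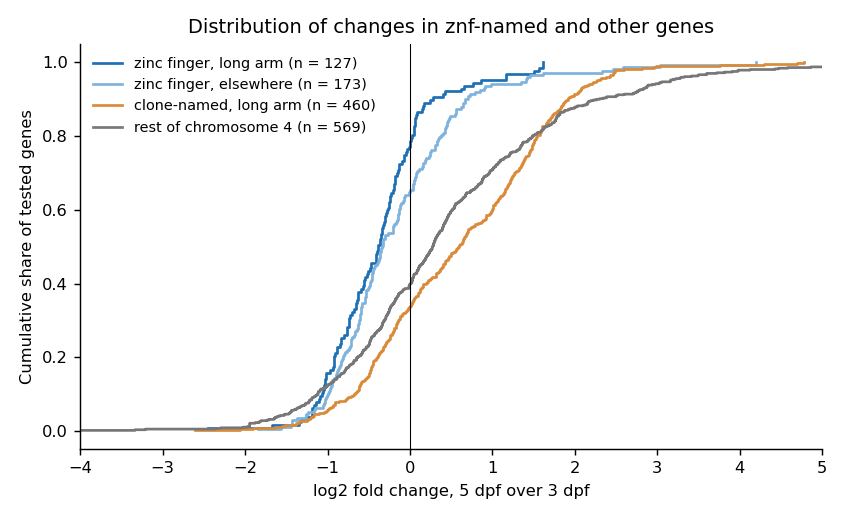
Cumulative share of tested genes by log2 fold change of 5 dpf over 3 dpf, for znf-named genes of the long arm and elsewhere, clone-named genes of the long arm and the rest of chromosome 4. The curves of both znf groups rise to the left of the others, with medians of -0.39 and -0.34, and clone-named genes of the long arm lie to the right, with a median of 0.59.

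The 5 called zinc finger genes were low. The gene znf1065 (chromosome 4, 33420247 to 33428994) had 2.55, 2.65 and 2.61 CPM at 3 dpf and 0.707, 0.892 and 1.46 at 5 dpf, a log2 fold change of -1.34 (SE 0.36, edgeR adjusted p = 0.0263). All 5 dpf libraries lay below all 3 dpf libraries. The same held for znf1109, which went from 1.23 ± 0.148 to 0.513 ± 0.0597 CPM, and for znf1105, from 1.04 ± 0.245 to 0.412 ± 0.0167 CPM (SD, n = 3 each). Their edgeR adjusted p-values were 0.0295 and 0.0330. Below the level set for naming genes, znf1145 fell from 0.197 to 0.0362 CPM (log2 fold change -2.46, edgeR adjusted p = 0.0281). The gene that rose, znf1029, had 0.305, 0.407 and 0.604 CPM at 3 dpf and 1.95, 0.948 and 1.13 at 5 dpf (log2 fold change 1.61, SE 0.46, edgeR adjusted p = 0.0340). All 5 calls were lost when some library was left out. Without 3 dpf replicate 1 the edgeR adjusted p was 0.0863 for znf1065, 0.0847 for znf1109, 0.0899 for znf1105, 0.148 for znf1145 and 0.134 for znf1029. Of the single libraries, leaving out 5 dpf replicate 1 alone kept the calls of znf1109, znf1105 and znf1145.

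By symbol, 2 genes of the arm were NLR-type, and both rose, against 18.1% of all genes. So few genes give no share for the family. The gene nlrc3l2 (33057844 to 33073382), named after an NLR family member of mammals, had 4.25, 6.81 and 3.88 CPM at 3 dpf and 16.4, 7.56 and 9.98 at 5 dpf. Its log2 fold change was 1.18 (SE 0.36, edgeR adjusted p = 0.0409), and the closest values of both ages were 6.81 and 7.56. The gene nlrp12l2 (37455405 to 37506164) had 0.210, 0.194 and 0.238 CPM at 3 dpf and 1.19, 0.576 and 0.50 at 5 dpf (log2 fold change 1.80, SE 0.50, edgeR adjusted p = 0.0305). In both genes 5 dpf replicate 1 was highest. Without it the log2 fold changes were 0.82 and 1.32 (edgeR adjusted p = 0.0464 and 0.0347). The call of nlrc3l2 was lost without 3 dpf replicates 1, 2 or 3 or 5 dpf replicate 3 (edgeR adjusted p = 0.149, 0.0520, 0.127 and 0.0723). That of nlrp12l2 was lost without 3 dpf replicates 1, 2 or 3 or 5 dpf replicate 2 (0.115, 0.112, 0.0787 and 0.0542).

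Genes of NLR signalling were listed from elsewhere in the genome, among them the NLR genes NOD1, NOD2, NLRX1 and ciita. Of 20 tested, 5 rose and 1 fell, against 18.1% and 14.1% of all genes. CARD9, an adaptor of innate signalling, went from 0.316 ± 0.161 to 3.93 ± 0.571 CPM (log2 fold change 3.63, edgeR adjusted p = 0.00299). The caspase gene caspb went from 0.883 ± 0.182 to 4.36 ± 1.15 CPM (2.30, edgeR adjusted p = 0.00395). The cytosolic sensors NOD2 and NOD1 rose as well, with log2 fold changes of 1.88 and 1.07. RELA, a subunit of NF-kB, was the gene that fell (-0.75, edgeR adjusted p = 0.0415). Errors are SD over 3 libraries per age. The median of the 20 was 0.31, against 0.09 over all genes. The leukocyte markers LCP1 and ptprc were also higher at 5 dpf. LCP1 stood at 0.917 ± 0.244 and 10.1 ± 3.84 CPM and ptprc at 0.248 ± 0.126 and 2.51 ± 1.33. The part of leukocytes in the changes of the list was not tested.

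Genes that act on heterochromatin, the packed state of silent regions, were listed as a second group, whichever way they act on it. Of 28 tested, 16 fell and 3 rose, with a median of -0.97. Over all genes 14.1% fell and 18.1% rose, with a median of 0.09. Of all genes above 1000 counts 24.7% fell and 13.9% rose, with a median of -0.21. The list was not matched for level, and the part of level was not tested. HELLS, a chromatin remodeller, went from 69.1 ± 12.5 to 16.6 ± 5.59 CPM (log2 fold change -2.06, edgeR adjusted p = 0.00333). DNMT1, the maintenance DNA methyltransferase, went from 232 ± 23.0 to 68.3 ± 25.9 CPM (-1.76, edgeR adjusted p = 0.00729). MACROH2A1, a histone variant, rose from 15.6 ± 2.83 to 50.5 ± 10.4 CPM (1.70, edgeR adjusted p = 0.00333), and cbx3b and kdm4c also rose. Whether these levels bear on the arm's genes was not tested.

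A dense group of rising genes lay near the end of the arm, where 14 copies of ms4a17a sit on the plus strand. MS4A proteins cross the membrane several times, and in mammals members such as CD20 are known from leukocytes. Of the 14 copies 10 were tested, and 9 of them rose, against 18.1% of all genes. All 10 had a positive fold change with ages that did not overlap, with a median of 2.59 on the log2 scale. Over all genes tested the ages did not overlap in 50.3%. The copies were grouped after their values were seen, so these counts are no test. The copy ms4a17a.4, without counts at 3 dpf, passed the count filter through 5 dpf alone, which fixed its direction. The summed level over all ms4a17a copies was 15.6, 16.6 and 19.0 CPM at 3 dpf and 92.4, 82.3 and 77.1 at 5 dpf. That is 17 ± 1.73 against 83.9 ± 7.81 (SD, n = 3 each), or 4.92-fold higher, with every 5 dpf library far above every 3 dpf library.

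The copies ms4a17a.11, ms4a17a.17, ms4a17a.16 and ms4a17a.9 made up nearly all of this. The gene ms4a17a.16 (76509294 to 76517613) had 0.868, 2.32 and 2.41 CPM at 3 dpf and 27.7, 17.2 and 19.4 at 5 dpf, a log2 fold change of 3.52 (SE 0.44, edgeR adjusted p = 0.00257). The gene ms4a17a.17 (76492691 to 76507576) had 2.39, 3.70 and 3.61 against 40.4, 15.8 and 14.0 CPM, a log2 fold change of 2.85 (SE 0.46, edgeR adjusted p = 0.00492). Both stayed called with any library left out. The gene ms4a17a.11 (76575585 to 76588333) had 7.70, 5.22 and 9.60 against 14.1, 34.5 and 30.8 CPM (log2 fold change 1.82, SE 0.38, edgeR adjusted p = 0.0116), and in contrast to the former pair 5 dpf replicate 1 was its lowest 5 dpf library. The gene ms4a17a.9 went from 4.00 ± 1.04 to 9.83 ± 2.10 CPM (1.30, SE 0.29, edgeR adjusted p = 0.0142). Without 3 dpf replicate 1 the edgeR adjusted p was 0.0547 for ms4a17a.11 and 0.0620 for ms4a17a.9, and without 5 dpf replicate 2 it was 0.0511 for ms4a17a.9.

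The other tested copies stayed under 1 CPM. The gene ms4a17a.4 had 0 counts in every 3 dpf library and 15, 37 and 38 counts at 5 dpf, which is at least 28.6-fold higher when 3 counts are assumed over the 3 dpf group. The gene ms4a17a.12 had 2, 0 and 12 counts at 3 dpf and 65, 118 and 108 at 5 dpf (log2 fold change 4.34, edgeR adjusted p = 0.0139), and its span overlaps that of ms4a17a.4 on the same strand. The copies ms4a17a.8, ms4a17a.5 and ms4a17a.2 rose with log2 fold changes of 2.44, 2.09 and 1.71 (edgeR adjusted p = 0.0134, 0.0200 and 0.0468). The call of ms4a17a.12 was lost without 3 dpf replicate 1 (edgeR adjusted p = 0.0681), and that of ms4a17a.8 without 3 dpf replicates 1 or 2 (0.0620 and 0.0714). The calls of ms4a17a.5 and ms4a17a.2 were lost without any library but 5 dpf replicate 1, with edgeR adjusted p-values of 0.0659 to 0.0925 and 0.0745 to 0.182. The copy ms4a17a.7 had a log2 fold change of 2.75 and missed the threshold (edgeR adjusted p = 0.0616).

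**Figure D4:**
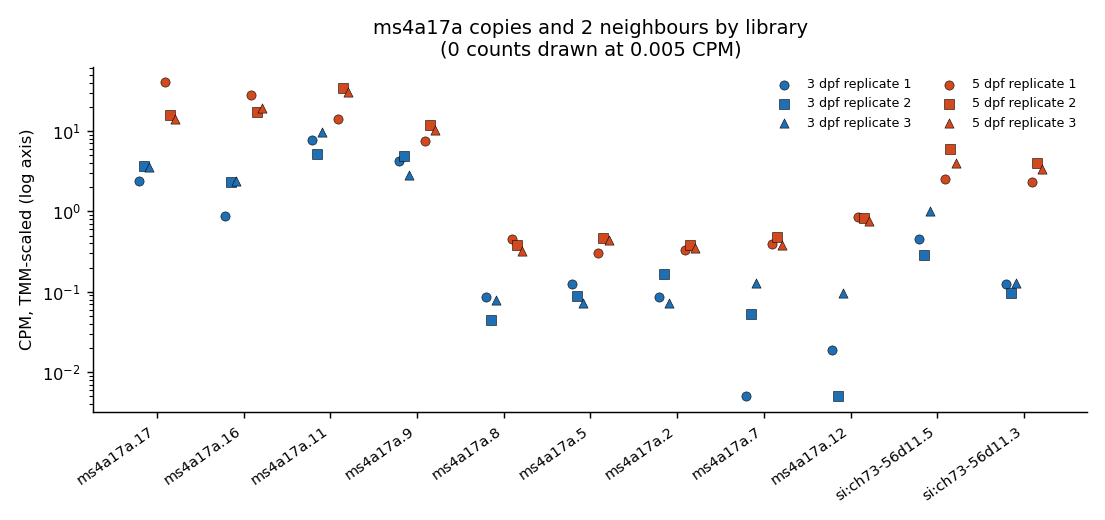
CPM, TMM-scaled and on a log axis, of 9 ms4a17a copies and 2 clone-named neighbours in each library. Blue marks 3 dpf and red 5 dpf, with a shape for each replicate. In every gene drawn the 3 red marks lie above the 3 blue marks, and the 4 abundant copies reach 7.58 CPM or more at 5 dpf.

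Neighbours of the ms4a17a copies rose with them. The gene si:ch73-56d11.3 (76787274 to 76808437) had 0.124, 0.0972 and 0.127 CPM at 3 dpf and 2.29, 3.96 and 3.41 at 5 dpf. Its log2 fold change of 4.78 (SE 0.40, edgeR adjusted p = 0.00109) held with any library left out. The gene si:ch73-56d11.5 beside it went from 0.585 ± 0.389 to 4.12 ± 1.70 CPM (SD, n = 3 each), with a log2 fold change of 2.81 (edgeR adjusted p = 0.00995, and 0.0531 without 3 dpf replicate 1). The gene mhc2d4b, named for the MHC class II molecules that present antigen, had 1, 3 and 3 counts at 3 dpf and 21, 114 and 104 at 5 dpf (log2 fold change 4.84, edgeR adjusted p = 0.00404). In the 1 Mb window from 48 to 49 Mb past the start of the arm, 21 of 41 tested genes rose. Without the ms4a17a copies, which lie in that window, 12 of 31 rose (38.7%), against 18.1% of all genes. In the window before it 9 of 19 rose. The largest share of any 1 Mb window lay elsewhere, from 6 to 7 Mb past the start, where 6 of 9 tested genes rose (66.7%).

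Markers of the sorted cells and of others were followed through both ages. Of 7 intestinal epithelium genes 3 rose and 1 fell, with a median log2 fold change of -0.16. Over all genes 18.1% rose and 14.1% fell. FABP2, VIL1 and CDH17 rose. The fold changes of cdh1, cldn15la, epcam and cdx1b were negative (-0.61, -0.16, -0.84 and -0.87), and of these cdx1b was called. The sum of the 7 genes was 4855 to 6060 CPM at 3 dpf and 5803 to 13820 at 5 dpf. FABP2 alone had 5968.5 CPM in 5 dpf replicate 1, against 1263 and 1667 in the other 5 dpf libraries. Of 7 leukocyte markers listed, 4 were matched to genes, none at 0 over all libraries, and 3 of the 4 rose. Their summed level was 0.935 to 2.34 CPM at 3 dpf and 10.8 to 26.9 at 5 dpf. The most abundant was LCP1, with the values given above, followed by CORO1A at 0.410 ± 0.206 and 5.21 ± 2.10 (SD, n = 3 each). Their part in the rise of the ms4a17a copies and of mhc2d4b was not tested. Of 6 mesenchyme genes 5 rose, and their sum was 462 to 746 CPM at 3 dpf and 1165 to 1987 at 5 dpf. Sums of exocrine pancreas genes were 0.212 to 0.532 and 88.0 to 328 CPM, of skin genes 2337 to 2780 and 3459 to 5290, and of liver genes 16.3 to 20.6 and 25.9 to 44.2 in the same order. Nearly all of the skin sum was krt4, with means of 2473 and 4029 CPM, which was not called (edgeR adjusted p = 0.110). The other skin genes, krt5 and TP63, rose from means of 31.0 and 1.08 CPM to 232 and 6.56. The kidney list matched CDH17, which is also on the intestinal list, and NPHS1, a podocyte gene, at 0.854 ± 0.379 and 0.400 ± 0.190 CPM (SD, n = 3 each). Sums of muscle genes were 437 to 859 and 17.3 to 428 CPM, of red blood cell genes 80.0 to 150 and 82.5 to 137, of neuron and glia genes 27.6 to 40.9 and 32.2 to 45.5, and of germ cell genes 0.389 to 0.739 and 0.415 to 1.61. Their part in the changes on the arm was not tested. In these bulk samples, fewer cells of a type and less RNA per cell cannot be told apart.

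Detection and the share of genes that rose differed between stretches of the arm. In the first 40 Mb, 516 of 1266 genes (40.8%) were detected, and 57 of 502 tested rose (11.4%) and 10 fell. From 40 Mb to the end, 268 of 378 (70.9%) were detected, and 60 of 265 rose (22.6%) and 7 fell. The share over all genes was 18.1%. The median count of tested genes was 55.0 in the first stretch and 150 in the second, and over all genes 24.13% were called from 30 to 100 counts and 33.2% from 100 to 300. The part of depth in this difference was not tested. The detected shares include small RNA genes, of which 463 of 476 on the arm had 0 counts in every library. In order, the 5 Mb bins of the first stretch held 111, 12, 64, 48, 76, 27, 57 and 44 of them. Those of the second held 33 and 4. The part of small RNA genes in the difference in detection was not tested. In the last bin, from 45 Mb on, 160 of 194 genes (82.5%) were detected and only 4 were small RNA genes. Its median of 0.807 FPKM lay below that of the rest of chromosome 4.

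**Figure D5:**
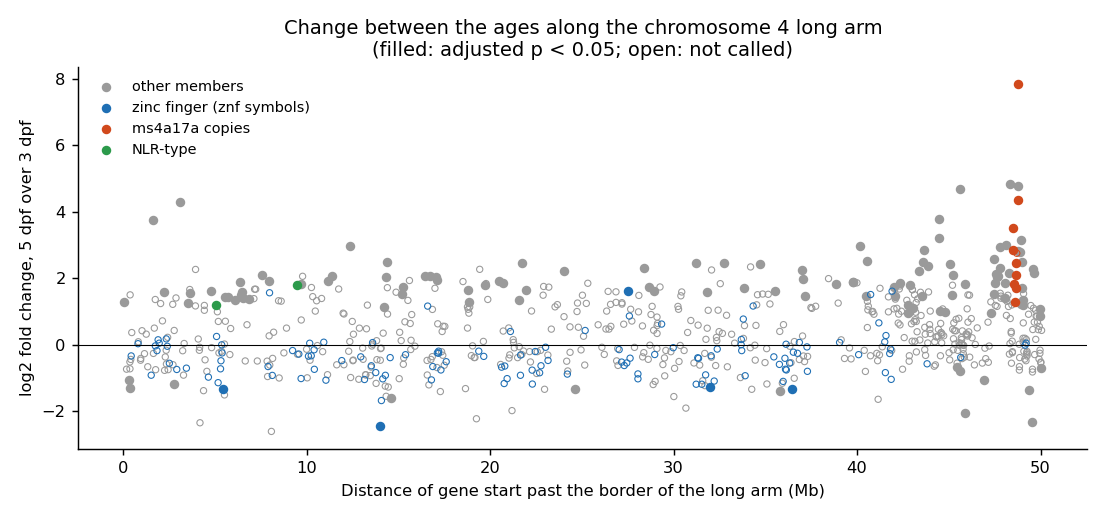
Log2 fold change of 5 dpf over 3 dpf for the 767 tested genes of the long arm, against the distance of the gene start from the start of the arm in Mb. Filled points passed an adjusted p of 0.05 in edgeR and open points did not, with zinc finger, ms4a17a and NLR-type genes in colour. The zinc finger genes lie mostly below 0 along the whole arm, and the ms4a17a copies stand together near 48 Mb.

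Of 460 clone-named genes tested, 84 rose (18.3%), near the 18.1% of all genes, and 5 fell (1.09%, against 14.1%). Their median was 0.59. The median clone-named gene tested had 62.4 counts per library. Over all genes of 30 to 100 counts 22.6% rose and 1.54% fell, with a median of 0.80. The largest rise at 0.5 CPM or more outside the ms4a17a window was in si:ch211-165i18.2 (73606482 to 73612754), with 0.172, 0.0707 and 0.127 CPM at 3 dpf and 2.50, 2.27 and 4.81 at 5 dpf. Its log2 fold change was 4.69 (SE 0.52, edgeR adjusted p = 0.00203) and held with any library left out. Others that held so were si:dkey-269o24.1, a gene of 11 exon blocks that went from 6.21 ± 0.961 to 18.8 ± 2.23 CPM (log2 fold change 1.6, edgeR adjusted p = 0.00302), and si:dkeyp-100h4.1, of 12 blocks, from 1.86 ± 0.377 to 7.82 ± 2.00 CPM (2.07, edgeR adjusted p = 0.00374). The gene si:dkey-240n22.3, of 10 blocks, went from 0.570 ± 0.0649 to 3.21 ± 0.558 CPM (2.49, edgeR adjusted p = 0.00271). Errors are SD over 3 libraries.

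Over the 117 genes that rose, 92 had their highest value in 5 dpf replicate 1, with a median log2 ratio of 0.59 to the other 5 dpf libraries. Among all tested genes 9286 of 22386 were highest there, with a median ratio of -0.06. Among all tested long arm genes 384 of 767 were, with a median ratio of 0.18. Unlike these 2 sets, the 117 genes were chosen for high values at 5 dpf. That library had 29.2% mitochondrial counts and a TMM factor of 0.612, against 1.00 to 1.27 in the other libraries. Some cell type markers also differed there. The muscle gene myhz1.1 had 8.47 CPM in it and 320 and 343 in 5 dpf replicates 2 and 3. In the same order col1a1a had 287, 1123 and 1033 CPM and FABP2 5968.5, 1263 and 1667. Others, such as fabp10a at 9.49, 9.83 and 8.06 CPM, differed little. The part of cell content in these values was not tested. With library size alone as the scale, 58 long arm genes were higher and 6 lower, and without that library 126 were higher and 35 lower.

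The genes with ordinary names had a median of 2.63 FPKM, near the 2.75 of all genes. Of 45, 40 were tested, and 7 rose (17.5%) and 4 fell (10%), shares near those of all genes (18.1% and 14.1%). Counted apart with its 5 slco1 neighbours, slco1d1 (77389668 to 77432218), of the organic anion transporter family, was the member with the most counts. It had 446, 527 and 302 CPM at 3 dpf and 223, 99.7 and 168 at 5 dpf, a log2 fold change of -1.38 (SE 0.35, edgeR adjusted p = 0.0229). All 5 dpf values lay below all 3 dpf values. The call was lost without 3 dpf replicates 1 or 2 or 5 dpf replicate 3 (edgeR adjusted p = 0.0784, 0.0822 and 0.0590).

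NUP50, a protein of the nuclear pore, had 157, 142 and 114 CPM at 3 dpf and 83.1, 56.1 and 57.0 at 5 dpf (log2 fold change -1.07, SE 0.24, edgeR adjusted p = 0.0137). TRMU, which modifies mitochondrial transfer RNA, fell from 16 ± 2.59 to 7.73 ± 1.78 CPM (edgeR adjusted p = 0.0171), and the serine racemase gene srr, its neighbour, fell from 14.8 ± 2.55 to 5.99 ± 1.80 (edgeR adjusted p = 0.0128). The ages did not overlap in these 3 genes. Without 3 dpf replicate 1 the edgeR adjusted p-values were 0.0680 for NUP50, 0.0705 for TRMU and 0.0514 for srr, and without 3 dpf replicate 2 they were 0.0553, 0.0698 and 0.0542. The fourth of those that fell was cct2, an entry of 330 bases named for a subunit of the cytosolic chaperonin, at 53.4 ± 5.55 and 33.0 ± 3.87 CPM (edgeR adjusted p = 0.0253, and 0.119 without 3 dpf replicate 1, 0.0872 without 3 dpf replicate 2 and 0.0740 without 5 dpf replicate 3). A second entry, CCT2, lies nearby at 199 ± 12 and 139 ± 42.3 CPM and was not called (edgeR adjusted p = 0.148). Errors are SD over 3 libraries.

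Of the named genes that rose, myrfl (72797711 to 72850636), related to the membrane-bound transcription factor MYRF, was the most abundant. It had 129, 112 and 131 CPM at 3 dpf and 366, 209 and 166 at 5 dpf (log2 fold change 0.99, SE 0.31, edgeR adjusted p = 0.0451), with replicate 1 highest. Without that library it had a log2 fold change of 0.60 (edgeR adjusted p = 0.0193). CPNE8, a copine that binds phospholipid with calcium, went from 9.15 ± 1.59 to 17.6 ± 2.40 CPM (edgeR adjusted p = 0.0153). ARFGAP3, a regulator of Golgi traffic, went from 21.7 ± 4.45 to 39.6 ± 8.47 (edgeR adjusted p = 0.0279), and ckap4, a membrane protein of the endoplasmic reticulum, from 11 ± 1.50 to 23.4 ± 8.51 (edgeR adjusted p = 0.0320). The gene fasn2, named for fatty acid synthase, rose at a very low level, from 0.0657 ± 0.0201 to 0.325 ± 0.111 CPM (edgeR adjusted p = 0.0220). Without 3 dpf replicate 1 the edgeR adjusted p-values of myrfl, CPNE8, ARFGAP3, ckap4 and fasn2 were 0.138, 0.0761, 0.132, 0.0911 and 0.111. Without 3 dpf replicate 2 they were 0.156, 0.0437, 0.120, 0.120 and 0.0966, and CPNE8 was lost without 3 dpf replicate 3 (0.0517).

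Named genes that were not called included the endosomal GTPase gene RAB21, at 36.3 ± 4.09 and 47.4 ± 6.07 CPM (edgeR adjusted p = 0.155), and the telomere protein gene terfa, at 30.9 ± 1.6 and 27.5 ± 6.01 (edgeR adjusted p = 0.573). The neural crest gene crestin had 4.1, 2.45 and 4.23 CPM at 3 dpf and 0.0917, 1.17 and 1.01 at 5 dpf. Its ages did not overlap, and its log2 fold change of -2.23 (SE 0.76) missed the threshold (edgeR adjusted p = 0.0583).

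Among genes without a symbol, the highest level per length on the arm belonged to ENSDARG00000115978 (77561226 to 77561679), at 299.7 FPKM. It lies next to a 5.8S ribosomal RNA copy (77560655 to 77560810). It had 234, 154 and 98.1 CPM at 3 dpf and 47.2, 133 and 111 at 5 dpf, which overlapped (log2 fold change -0.74, SE 0.44, edgeR adjusted p = 0.238). On the other side of that copy, ENSDARG00000115988 (77557112 to 77557279) had 27.7, 19.7 and 7.76 CPM at 3 dpf and 2.48, 4.35 and 4.21 at 5 dpf (log2 fold change -2.32, SE 0.48, edgeR adjusted p = 0.0106), and stayed called with any library left out. Reads of ribosomal RNA in either entry were not told apart from other transcripts. The entry ENSDARG00000115426 fell from 2.04 ± 0.507 to 0.674 ± 0.189 CPM (edgeR adjusted p = 0.0187, and 0.0870 without 3 dpf replicate 1), and the clone-named si:cabz01069023.1 fell from 1.47 ± 0.390 to 0.351 ± 0.0552 (edgeR adjusted p = 0.00847), which held with any library left out. The clone-named si:dkey-30f3.2 fell from 0.821 ± 0.233 to 0.314 ± 0.0617 CPM (edgeR adjusted p = 0.0432, and 0.0968 without 3 dpf replicate 1). Errors are SD over 3 libraries.

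At the start of the arm the rule took the gene ENSDARG00000069171 (GRAMD4), with a log2 fold change of 1.29, a 5S copy at 0 counts, and CELSR1, a cadherin of planar cell polarity, with -0.74. The last 3 genes left out were CERK, TBC1D22A and ENSDARG00000069160 (TAFA5), with 0.29, 0.47 and 2.02. Apart from the 5S copy, these genes lay between 0.687 FPKM (ENSDARG00000069160) and 21.4 FPKM (CELSR1).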

How the data were processed

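Raw, whole-number counts per gene were deposited. Per the file headers, the authors counted read pairs over exons with featureCounts 1.6.3, strand setting 2 and the Ensembl release 115 annotation of GRCz11, without pairs of more than 1 mapping place or gene. This bears on the arm, where 352 of 1644 members overlap another on the same strand. The submitters' processing notes also name Trimmomatic 0.38, STAR 2.7.11 and Subread 1.6.3.

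Counts were tested over all 22386 genes with edgeR 4.0.16 (two-sided quasi-likelihood test, TMM scaling, filterByExpr with a minimum count of 10 and total of 15) in R 4.3.3, with age as the only term and Benjamini-Hochberg adjustment at 0.05. CPM use TMM-scaled totals, and the standard error is the log2 fold change divided by the root of F. The steps were tested on simulated data.

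Members and lists were chosen with earlier results of these data known. Zinc finger and NLR-type genes were told by symbol, and 1402 members had one. Named genes were those with the largest called changes (ages not overlapping, at least 0.5 CPM) or highest FPKM in each class, the border genes and list leaders. Members of the ms4a17a, NLR-type and named groups, and genes that fill counts of 5 or fewer, were added after their values were seen. Of the heterochromatin list 29 of 39 entries matched a gene, and of the NLR signalling list 20 of 27, and some of these genes are not reported here. Marker lists of 11 cell types were checked in the same way.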

Additional observations from a re-analysis of the deposited data

How the results depend on the processing

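Of 134 long arm calls, DESeq2 1.42.0 also made all 134. The number of long arm genes higher at 5 dpf (117) was 58 with library size alone, 71 at 1 CPM or more in 3 libraries, 133 without both 5 dpf replicate 1 and 3 dpf replicate 3, and 22 to 126 with a library left out. The number lower (17) was 6 with library size alone, 36 in DESeq2, 38 without both libraries, and 2 to 35 with a library left out. On the rest of chromosome 4 library size alone gave 69 higher and 38 lower, leaving out both libraries 177 higher and 140 lower, and leaving out a library 51 to 160 higher and 45 to 123 lower. Zinc finger genes higher (1) were 2 with upper quartile scaling, DESeq2 and both libraries left out, 0 with library size alone and 0 to 2 with a library left out, and those lower (4) were 1 with library size alone, 2 at 1 CPM, 9 in DESeq2 and 0 to 6. Their median of -0.39 was -0.26 with upper quartile scaling, -0.16 at 1 CPM, -0.27 without both libraries and -0.62 to -0.29 with a library left out. NLR-type genes higher (2) were 0 with library size alone, 1 at 1 CPM, 1 without both libraries and 0 to 2 with a library left out. For genes of 8 or more exon blocks, 38 were higher with library size alone, 86 without both libraries and 15 to 82 with a library left out. Their median of 1.18 was 1.31 with upper quartile scaling, 1.01 with library size alone, 0.87 without both libraries and 0.86 to 1.31 with a library left out. The arm's median of 0.19 was 0.33 with upper quartile scaling, which moved that of all genes from 0.09 to 0.22, and 0.10 to 0.25 with a library left out. At 1 CPM in 3 libraries 285 genes were detected, and 747 to 771 with a library left out. The share of counts at 3 dpf was 3052 CPM without mitochondrial genes, 2652 with TMM totals and 2738 to 2783 with a library left out. At 5 dpf it was 2865, 2495 and 2168 to 2715 in the same order. The fold change of cldn15la turned to 0.098 without 5 dpf replicate 3 and was -0.79 without both libraries. Borders at 24000000 and 32000000 and thinning to the smallest total changed no count by over 1.5 times. The causes were not tested.

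The labels give no pairing of libraries with equal replicate numbers, and the main fit used none. Their deviations from the age means correlated at 0.092, -0.22 and 0.19. With 3 libraries per age these values cannot exclude a pairing. With a replicate block 64 long arm genes were higher and 8 lower, 44 of those with 8 or more exon blocks were higher, zinc finger genes were 0 higher and 1 lower, and 0 NLR-type genes were called.

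The median tested gene had 67.0 counts per library on the arm and 753 over all genes. The part of depth in the share of genes called was not tested.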
